A study of Mus musculus with 5 samples.

Results

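Gabrr2, Pstpip2, Tsga10ip and Gsta4 are 4 of the 55487 genes in the count files, chosen from those that lost nearly all of their reads in CD4 single positive (SP) thymocytes of Tet2/3 DKO mice. They were selected on the contrast between genotypes in these same libraries, so their own levels and fold losses are given as a description with no test. What the choice did not use is their neighbours on the chromosome, the relatives of each gene and the sequence before their start sites. RNA-seq was carried out on 5 libraries, 1 for each mouse, with 3 WT and 2 Tet2/3 DKO mice of the C57BL/6J strain, 21 to 30 days old per the methods of the study. The DKO mice had the genotype Tet2-/-Tet3flx/flxCD4cre, in which Tet2 is deleted in the germline and the floxed Tet3 is deleted by a Cre recombinase under the control of Cd4 sequences, active in T cells from the double positive stage on. The WT mice carried no deletion, no floxed allele and no Cre. The sorted cells were live CD24 low, CD4+, TCRβ+ and CD8- thymocytes that did not bind the αGalCer-loaded CD1d tetramer. The deletion of Tet2 in every cell of the mouse and the absence of a Cre-only control limit the model: an effect from outside the T cells and an effect of Cre cannot be told apart from the loss of both enzymes in T cells.

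TET proteins oxidize 5-methylcytosine, a step on the way to DNA demethylation, and the mark they remove is often found at silent promoters and enhancers. The 4 genes belong to unrelated families. Gabrr2 encodes the rho-2 subunit of ligand-gated chloride channels that open on binding GABA, best known from the retina. Gsta4 encodes an alpha class glutathione S-transferase that conjugates glutathione to hydroxynonenal, a reactive product of lipid peroxidation. Pstpip2 encodes an F-BAR protein, one of the curved adaptors that bind membranes and the actin cytoskeleton, and it recruits tyrosine phosphatases of the PEST family. It is best known from macrophages and from mice with autoinflammatory bone disease. Tsga10ip is named for the binding of its product to TSGA10, a protein of the sperm tail.

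Between 17607089 and 27267031 reads fell on genes in each library, and reads outside the annotated exons were 3.51% to 3.72% of the total in 4 libraries and 5.70% in DKO replicate 1. The labels and the transcripts disagreed on sex in 2 libraries. WT replicate 1 is labelled female but had 0 reads of Xist and 6821 reads summed over 4 Y-linked genes, while DKO replicate 1 is labelled male but had 744 reads of Xist and 7 Y-linked reads. By these transcripts all 3 WT mice and DKO replicate 2 were male and DKO replicate 1 was female, so that sex is partly confounded with genotype. The methods of the study call all 5 mice male, which the label of WT replicate 1 and the transcripts of DKO replicate 1 go against. The losses of the 4 genes and the genes past the threshold in the neighbourhoods and lists are therefore also given without both of these libraries, with WT replicates 2 and 3 against DKO replicate 2. Tet3 had 1133, 1082 and 1440 reads in WT and 419 and 235 in DKO, a log2 fold change of -1.50 (SE 0.18, edgeR adjusted p = 0.00121), and its adjusted p rose to between 0.0144 and 0.0154 without WT replicate 2 or 3. Without both libraries of doubtful sex it was -1.91. Tet2 had 1355, 1286 and 1585 reads in WT and 1919 and 1048 in DKO, and counts over the whole gene do not check the deleted exons. At an adjusted p of 0.01, 530 of 13525 tested genes differed (3.92%), 203 of them lower (1.50%) and 327 higher (2.42%) in DKO.

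Gabrr2 (ENSMUSG00000023267) lies on the plus strand of chromosome 4, at 33062999 to 33095865 of mm10, and its exons cover 2105 bases. It had 2044, 1772 and 1889 reads in the WT libraries and 68 and 26 reads in the DKO libraries. Scaled to the reads on genes of each library with TMM factors, in CPM, these were 79.1, 74.7 and 68.8 against 3.24 and 1.45. Both DKO libraries lay far below every WT library, and the lowest WT level was 21.2 times the highest DKO level. The mean fell from 74.2 ± 5.13 (SD, n = 3) to 2.35 ± 1.26 CPM (SD, n = 2), a 31.6-fold lower level and a log2 fold change of -4.94 (SE 0.23). DKO replicate 1 kept 4.37% of the WT mean (3.39 to 5.54%) and DKO replicate 2 kept 1.96% (1.28 to 2.87%), where the ranges are exact Poisson 95% intervals that cover the counting error of the DKO library only. Gabrr2 was thus an abundant transcript of WT CD4 SP cells with a small but measurable remainder in both DKO libraries.

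**Figure D1:**
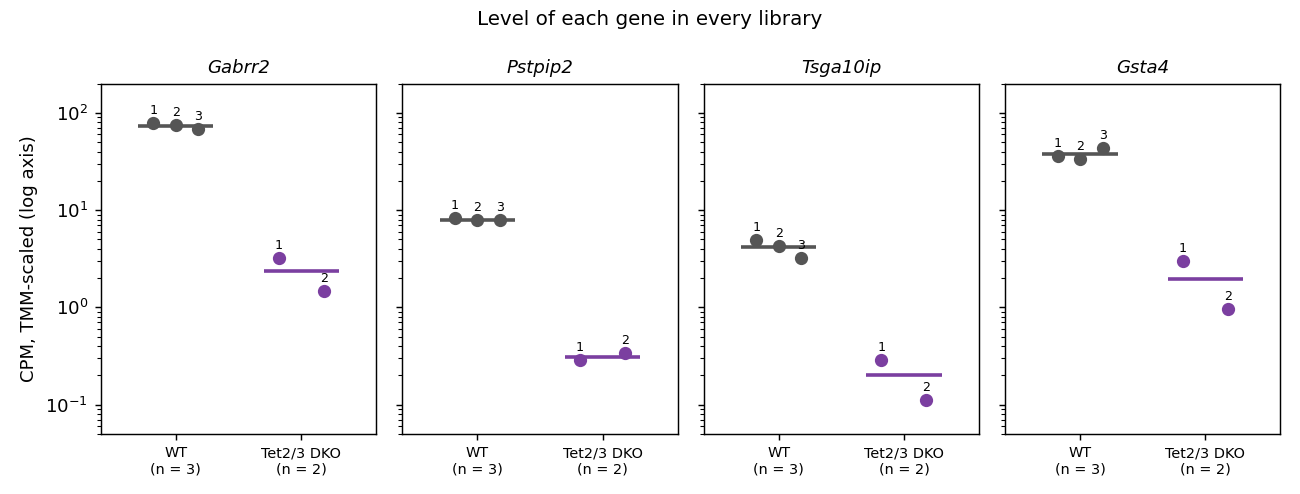
Level of Gabrr2, Pstpip2, Tsga10ip and Gsta4 in each of the 3 WT and 2 Tet2/3 DKO libraries, in TMM-scaled CPM on a log axis; points are libraries with their replicate number and bars are group means. In each gene both DKO points sit at least 11.1-fold below the lowest WT point.

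Gsta4 (ENSMUSG00000032348) lies on the plus strand of chromosome 9, at 78182774 to 78209349, with 1266 exonic bases. It had 934, 791 and 1193 reads in WT and 63 and 17 in DKO, or 36.1, 33.3 and 43.5 CPM against 3.00 and 0.951 CPM. The groups did not overlap, with the lowest WT level 11.1 times the highest DKO level. The mean was 37.6 ± 5.24 CPM (SD, n = 3) in WT and 1.98 ± 1.45 CPM (SD, n = 2) in DKO, which is 19.0-fold lower and a log2 fold change of -4.20 (SE 0.31). DKO replicate 1 kept 7.98% of the WT mean (6.13 to 10.2%) and DKO replicate 2 kept 2.53% (1.47 to 4.05%). The remainder of this detoxifying enzyme was thus 63 reads in one DKO library and 17 in the other, with 1 mouse behind each.

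Pstpip2 (ENSMUSG00000025429) lies on the plus strand of chromosome 18, at 77789914 to 77882879, with 2340 exonic bases. It had 214, 187 and 215 reads in WT and 6 reads in each DKO library. In CPM these were 8.28, 7.88 and 7.83 against 0.286 and 0.336. Within each group the libraries were close together, and the lowest WT level was 23.3 times the highest DKO level. The mean fell from 8.0 ± 0.244 CPM (SD, n = 3) to 0.311 ± 0.0351 CPM (SD, n = 2), 25.7-fold lower, with a log2 fold change of -4.67 (SE 0.38). Resting on 6 reads each, the shares left were 3.58% (1.31 to 7.79%) and 4.20% (1.54 to 9.14%). When only 1 strand of the reads was counted, the log2 fold change of Pstpip2 was -6.10 or -3.96, depending on the strand. These values rest on 2 and 10 DKO reads, in libraries without strand information.

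Tsga10ip (ENSMUSG00000039330) lies on the minus strand of chromosome 19, at 5390049 to 5402526, with 1726 exonic bases. It was the gene with the fewest reads, with 127, 102 and 89 in WT and 6 and 2 in DKO. In CPM these were 4.91, 4.30 and 3.24 against 0.286 and 0.112, so that the lowest WT level was 11.3 times the highest DKO level. The mean was 4.15 ± 0.844 CPM (SD, n = 3) in WT and 0.199 ± 0.123 CPM (SD, n = 2) in DKO, 20.9-fold lower, with a log2 fold change of -4.29 (SE 0.55). DKO replicate 1 kept 6.89% of the WT mean (2.53 to 15.0%), and the 2 reads of DKO replicate 2 correspond to 2.7% (0.326 to 9.74%). The remainder of Tsga10ip is thus the least precisely known of the 4.

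For Gabrr2 and Tsga10ip the bases before the annotated start site are shown, since TET proteins act on cytosines followed by guanine. They come from RefSeq (GRCm38.p6), run 5′ to 3′ on the strand of the gene and stop where the annotated transcript begins, with each CG dinucleotide in capitals. No such window was used for Pstpip2 and Gsta4.
Gabrr2, chr4:33062862-33062998, plus strand: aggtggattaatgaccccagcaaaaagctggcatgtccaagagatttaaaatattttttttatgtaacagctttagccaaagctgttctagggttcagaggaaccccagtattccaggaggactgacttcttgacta
Tsga10ip, chr19:5402527-5402756, minus strand: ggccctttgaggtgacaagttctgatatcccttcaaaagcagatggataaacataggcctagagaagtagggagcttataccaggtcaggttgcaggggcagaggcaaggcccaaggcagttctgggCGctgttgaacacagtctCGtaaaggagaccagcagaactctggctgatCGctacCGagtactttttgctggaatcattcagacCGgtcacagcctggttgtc
The Gabrr2 stretch of 137 bases holds 0 CG dinucleotides and the Tsga10ip stretch of 230 bases holds 5. The whole RefSeq window of 300 bases runs from 250 before to 50 after the RefSeq start, which lies inside the annotated transcript of both genes. For Gabrr2 this window ends at 33063161, while the annotated gene starts at 33062999. In it Gabrr2 had 2 CG dinucleotides, both past the annotated start, and Tsga10ip had 5. The median was 7 (quartiles 3 and 20) over 32851 promoter windows of mouse genes. Among these windows 14.1% had fewer than Gabrr2 and 38.0% had fewer than Tsga10ip. The number of CG dinucleotides relative to that given by base composition was 0.112 for Gabrr2 and 0.245 for Tsga10ip, against a median of 0.384. Both promoters were thus on the CG-poor side of the median. The letters of 5 transcription factor motifs were searched on both strands of the 300 bases. The RUNX-type letters TGTGGT, present in 16.8% of all windows, were found in neither promoter. Likewise absent from both were the letters of the ETS-type motif, GGAAGT, which 23.8% of windows hold. Neither window held AGATAA, the GATA-type letters of 11.2% of windows, or the GC box, GGGCGG, which 35.7% hold. The TCF1/LEF1-type letters CTTTGA, in 16.0% of windows, had 1 match, near the 5′ end of the Tsga10ip stretch. Methylation of these stretches was not analysed here.

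Per kilobase of exon, which allows levels of different genes to be compared, the 4 genes fell into 2 tiers. Gabrr2 had a mean WT level of 35.2 CPM per kb and Gsta4 of 29.7 CPM per kb, and their WT libraries overlapped. Pstpip2, at 3.42 CPM per kb, lay above Tsga10ip, at 2.41 CPM per kb, in every WT library. Among 13516 tested genes with an exon length, the WT level per kb of Gabrr2 exceeded that of 85.8%, of Gsta4 83.4%, of Pstpip2 46.9% and of Tsga10ip 41.1%. In DKO these percentages were 26.9 for Gabrr2, 32.2 for Gsta4, 3.88 for Pstpip2 and 3.26 for Tsga10ip. The DKO levels per kb of Gsta4 (1.56) and Gabrr2 (1.12) overlapped, as did those of Pstpip2 (0.133) and Tsga10ip (0.115), so the order within each tier was not resolved in DKO.

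The remainders in the 2 DKO libraries, each from 1 mouse, are set side by side as a description. The CPM of Gsta4 in DKO replicate 1 was 3.16 times that in DKO replicate 2 (exact 95% interval for counting error 1.83 to 5.76), and that of Gabrr2 was 2.23 times (1.40 to 3.65). For Tsga10ip the ratio was 2.56 (0.457 to 25.9) and for Pstpip2 0.852 (0.228 to 3.19). These intervals hold no spread between mice, so they do not show that mice of this genotype differ. Tet3 itself had 20.0 CPM in DKO replicate 1 and 13.1 CPM in DKO replicate 2. DKO replicate 1 is the library whose transcripts go against its sex label, so each loss was also computed without it and without WT replicate 1. The log2 fold changes were then -5.63 for Gabrr2, -5.34 for Gsta4, -4.53 for Pstpip2 and -5.01 for Tsga10ip. These rest on 1 DKO library. The order of the losses was not stable: Gsta4 had the smallest of the 4 with both DKO libraries, and Pstpip2 with DKO replicate 2 alone.

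In the ordering from which the 4 genes were taken (genes lower at an adjusted p of 0.01 with a symbol, a mean log2 CPM of at least 1 and no overlap between groups), they hold places 2 to 5. Among all tested genes, 19.5% had every DKO library below every WT library. Place 1 went to mt-Nd3, a mitochondrial subunit of complex I, with 81, 109 and 74 reads in WT and 0 in both DKO libraries. Among the genes after Gsta4 (-4.20) were Drosha, the nuclear RNase that starts microRNA maturation, with 4584, 3714 and 4583 against 272 and 226 reads (log2 fold change -3.70), and Sh3gl3, a protein of the endophilin family, with 135, 105 and 151 against 6 and 9 (-3.69). Of 9843 tested genes with a WT mean of at least 3 CPM, 159 kept under 50% of the WT mean in DKO and 9 kept under 10%, while the median gene kept 98.8%. The 9 included the 4 genes, mt-Nd3, Drosha (7.67%), Sh3gl3 (7.82%) and Gm47015, a long noncoding RNA that kept 8.51%.

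**Figure D2:**
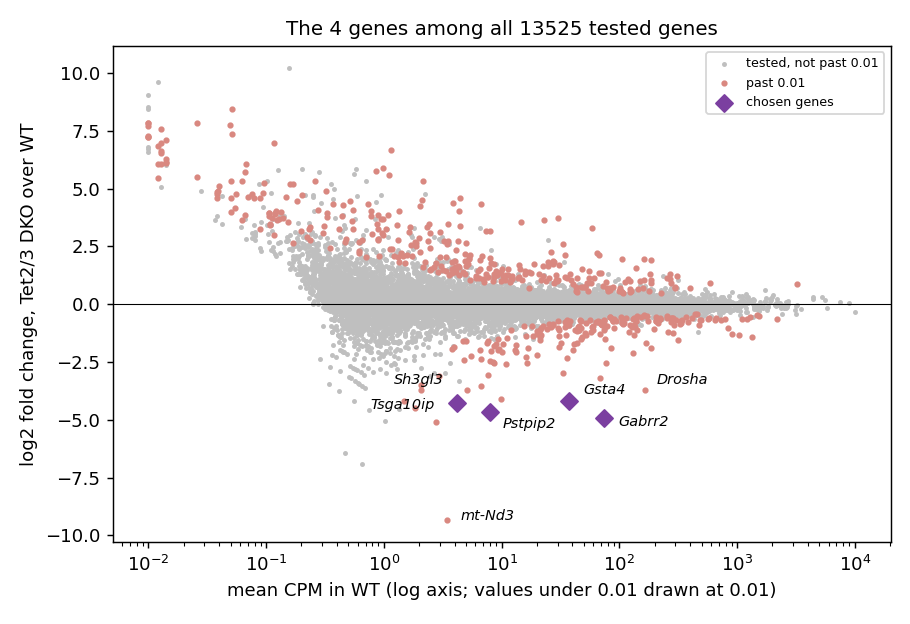
Log2 fold change of Tet2/3 DKO over WT against the mean CPM in WT (log axis) for 13525 tested genes; diamonds are the 4 chosen genes and coloured points had an edgeR adjusted p under 0.01. At their WT levels of 4.15 to 74.2 CPM the diamonds lie at the lower edge of the cloud, with mt-Nd3 below and Drosha above them.

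The genes whose profiles lay nearest to the mean profile of the 4, by Euclidean distance of log2 CPM over the 5 libraries after centring on the WT mean, included Khdrbs3 at 1.14, Drosha at 1.19, mt-Nd3 at 1.52 and Oit3 at 1.64. The 4 genes themselves lay 0.615 to 0.876 from their own mean. These distances are small by construction, since the genes were chosen on this contrast and make up that mean, so they do not show a group. Khdrbs3, an RNA-binding protein, had 86, 53 and 78 reads in WT and 1 and 2 in DKO. Oit3 had 41, 52 and 48 reads in WT and 1 and 2 in DKO. All of these distances share the same 5 libraries.

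The 4 genes lie on chromosomes 4, 9, 18 and 19, and none is on chromosome 3 or 6, which carry Tet2 and Tet3. Whether their neighbours moved with them was asked of every gene whose span came within 500 kb. Of 173 annotated neighbours 73 could be tested, of which 1 was lower and 0 were higher in DKO, 1.37% against the 3.92% of all tested genes. DESeq2 called 3 of them lower and 0 higher (Kcnk7, Pnrc1 and Frmd8). At an unadjusted p of 0.05 in edgeR, 17 neighbours were lower (23.3%) and 3 higher (4.11%), where 10.6% of all tested genes were lower and 12.4% higher. The median log2 fold change was -0.08 over 12 tested neighbours of Gabrr2, -0.03 over 5 of Pstpip2, -0.15 over 44 of Tsga10ip and -0.12 over 12 of Gsta4, against 0.01 over all tested genes. Of the 100 neighbours not tested, 81 had at most 3 reads in every library. The one with the highest count, Cd109, 406 kb downstream of Gsta4, had 233 reads in DKO replicate 2 and 0 in the other 4 libraries. The 17 include Kcnk7, Bbs1 and Ankrd6, and the excess over all tested genes was not tested. The 4 neighbours with a log2 fold change beyond 1 in either direction are given next.

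The neighbour that was lower, Kcnk7, encodes a member of the two-pore domain potassium channel family and lies 302 kb upstream of Tsga10ip. It had 137, 98 and 135 reads in WT and 14 and 21 in DKO, a log2 fold change of -2.40 (SE 0.36, edgeR adjusted p = 0.00381). Its adjusted p was between 0.0102 and 0.0252 when any 1 WT library was left out, when only reads of the first strand were counted and with a replicate block, and without both libraries of doubtful sex its log2 fold change was -1.95 and past the threshold. Bbs1, a subunit of the complex that carries cargo to cilia, lies 483 kb downstream of Tsga10ip and had 15, 15 and 14 reads in WT and 0 and 2 in DKO, at an adjusted p of 0.0554. Its log2 fold change was -3.34 and ran from -6.82 to -2.29 over the 13 alternatives that tested it. Ankrd6, 112 kb upstream of Gabrr2, had 37, 37 and 43 reads in WT and 11 and 12 in DKO (log2 fold change -1.35, SE 0.41, adjusted p = 0.0823). Cnih2, downstream of Tsga10ip, had a log2 fold change of 1.32 (SE 0.44, adjusted p = 0.110).

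**Figure D3:**
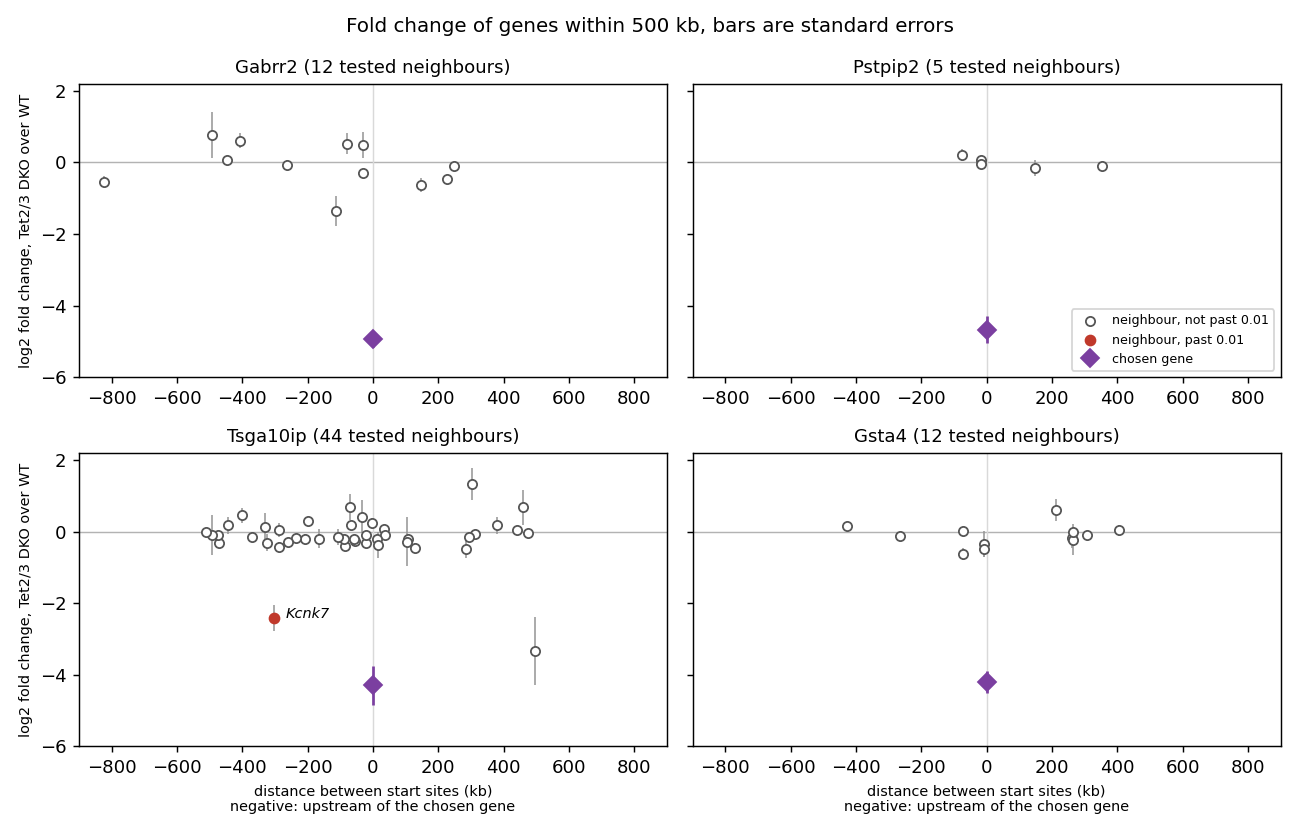
Log2 fold change of Tet2/3 DKO over WT of tested genes whose span lies within 500 kb of each chosen gene, against the distance between start sites in kb (negative is upstream); bars are standard errors, diamonds the chosen genes and the filled circle a neighbour with an adjusted p under 0.01. Open circles of the 72 other neighbours lie around 0 beside diamonds at -4.20 to -4.94, with Kcnk7 at -2.40 and Bbs1 at -3.34.

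Next to each gene, the 3 nearest tested genes on either side were read out, 23 in all since Pstpip2 has 2 on its downstream side. None of the 23 passed the threshold in edgeR, where 3.92% of all tested genes did, and 1 did in DESeq2. At an unadjusted p of 0.05, 5 were lower (21.7%) and 0 higher, beside 10.6% and 12.4% of all tested genes. Their log2 fold changes ran from -0.63 (Srsf12) to 0.59 (Ddx43). The lower end of the 95% interval, taken gene by gene, was at its lowest -1.21 (Gm17324), which is well short of the losses of the 4 genes. Upstream of Gabrr2, Ube2j1, a ubiquitin-conjugating enzyme 10.6 kb away on the same strand, had 2530, 2268 and 2531 reads in WT and 1705 and 1297 in DKO (log2 fold change -0.31, interval -0.53 to -0.09, adjusted p = 0.0914). Further upstream, 4933421O10Rik had a log2 fold change of 0.47 (interval -0.34 to 1.29) and Rragd, a GTPase of amino acid sensing, of 0.52 (interval -0.15 to 1.18). Downstream, Gabrr1 lies 36.7 kb away and had 4 reads in 1 WT library and 0 in the other 4 libraries. Srsf12, a splicing factor 113 kb downstream, had 252, 219 and 264 reads in WT and 132 and 107 in DKO (log2 fold change -0.63, interval -1.05 to -0.21, adjusted p = 0.0728). Further on, Rngtt, the mRNA capping enzyme, had a log2 fold change of -0.09 (interval -0.33 to 0.15). Pnrc1, a nuclear receptor coactivator, had a log2 fold change of -0.46 (adjusted p = 0.0424) and was past the threshold with DESeq2, without DKO replicate 1 and without both libraries of doubtful sex.

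Atp5a1, a subunit of the mitochondrial ATP synthase, ends 7.05 kb upstream of Pstpip2 and had 36998, 33172 and 37963 reads in WT and 28516 and 24708 in DKO (log2 fold change -0.03, interval -0.20 to 0.13). Haus1, a subunit of the augmin complex of the spindle, lies 16.0 kb upstream with a log2 fold change of 0.07 (interval -0.17 to 0.31), and Epg5, an autophagy gene, 55.6 kb downstream with -0.16 (interval -0.67 to 0.35). Beyond them, 8030462N17Rik upstream had 0.21 (interval -0.19 to 0.60) and Slc14a1, a urea transporter downstream, -0.11 (interval -0.36 to 0.15). The nearest genes of Pstpip2 were thus at similar levels in both genotypes, within these intervals.

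Tsga10ip has neighbours close on both sides. Sart1, a splicing factor 1.35 kb downstream on the same strand, had 2094, 2083 and 2010 reads in WT and 1326 and 1363 in DKO (log2 fold change -0.21, interval -0.49 to 0.06). 4930481A15Rik, 4.21 kb upstream on the other strand, had 653, 617 and 606 reads in WT and 657 and 471 in DKO (0.24, interval -0.07 to 0.56). Drap1, a transcriptional corepressor 20.3 kb upstream, had a log2 fold change of -0.32 (interval -0.56 to -0.09, adjusted p = 0.0932), and AI837181 beyond it -0.11 (interval -0.35 to 0.13). On the downstream side AC122861.4, an antisense transcript 0.448 kb away, was at -0.37 (interval -1.18 to 0.44) and Eif1ad at -0.10 (interval -0.31 to 0.12).

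Upstream of Gsta4, the noncoding C920006O11Rik, 3.90 kb away, had 169, 162 and 235 reads in WT and 114 and 90 in DKO (log2 fold change -0.48, interval -0.99 to 0.03). Ick, a ciliary kinase 10.7 kb away, had 390, 395 and 498 against 248 and 171 reads (-0.63, interval -1.02 to -0.24, adjusted p = 0.0567) and was past the threshold only without both libraries of doubtful sex. Downstream, the paralogues Gsta1, at 21.3 kb, and Gsta2, at 122 kb, had 0 reads in all 5 libraries. The nearest tested gene on that side was Ddx43, an RNA helicase 186 kb away, with a log2 fold change of 0.59 (interval -0.11 to 1.29). Cgas, the cytosolic DNA sensor, followed with -0.18 (interval -0.80 to 0.43) and Gm17324 with -0.23 (interval -1.21 to 0.75). Rn7sk, a small nuclear RNA 7.14 kb upstream, was at -0.35 (interval -1.18 to 0.49).

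The relatives of each gene were read from 6 lists that leave out the 4 genes themselves. In edgeR and in DESeq2, 0 of 1 tested GABA-A receptor subunit, 0 of 5 tested partners of PSTPIP2 and 0 of 3 tested sperm and testis genes passed the threshold. At an unadjusted p of 0.05, where 10.6% of all tested genes were lower and 12.4% higher, 1 subunit was lower, 1 partner was higher and 0 sperm and testis genes were either. Of 17 tested F-BAR proteins 1 was higher, of 16 tested glutathione S-transferases 1 was lower, and of 19 tested genes of glutathione and electrophile defence 2 were lower, beside 1.50% of all tested genes lower and 2.42% higher. DESeq2 called 2, 2 and 4 genes of these lists. At an unadjusted p of 0.05 the F-BAR list had 2 lower and 2 higher, the transferases 4 and 4, and the defence genes 4 and 2. All 4 edgeR calls were lost when any 1 WT library was left out, with adjusted p between 0.0135 and 0.0472 over the settings that lost them. Fchsd2, Gstp3 and Aldh2 also lost it with a replicate block. Without both libraries of doubtful sex all 4 were past the threshold, at log2 fold changes of 0.68 for Fchsd2, -1.0 for Gstp3, -1.05 for Ggt5 and -1.05 for Aldh2.

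Gabrr2 was the only GABA-A receptor subunit gene with more than 39 reads in any library. Of the other 18 subunit genes, 11 had 0 reads everywhere, among them Gabrr3, and Gabrr1 had 4 reads in all. Gabrd, the delta subunit and the only other one tested, had 19, 39 and 23 reads in WT and 2 and 11 in DKO (log2 fold change -1.64, SE 0.71, adjusted p = 0.21). Gabra4 and Gabre had 0 reads in WT and 4 to 7 reads in each DKO library, too few to be tested.

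Among F-BAR proteins, Pstpip1, the closest relative of Pstpip2, had 2815, 2981 and 3018 reads in WT and 2347 and 1782 in DKO, a log2 fold change of -0.12 (SE 0.10, adjusted p = 0.572). Fchsd2, an F-BAR protein of endocytosis and actin assembly, rose, with 790, 681 and 819 reads in WT and 1489 and 843 in DKO (log2 fold change 1.0, SE 0.16, adjusted p = 0.00573). The median over the 17 tested was -0.20. The partners of PSTPIP2, the phosphatases Ptpn12, Ptpn18 and Ptpn22, the inositol phosphatase Inpp5d and the kinase Csk, had log2 fold changes of -0.20 to 0.28 with a median of 0.17.

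**Figure D4:**
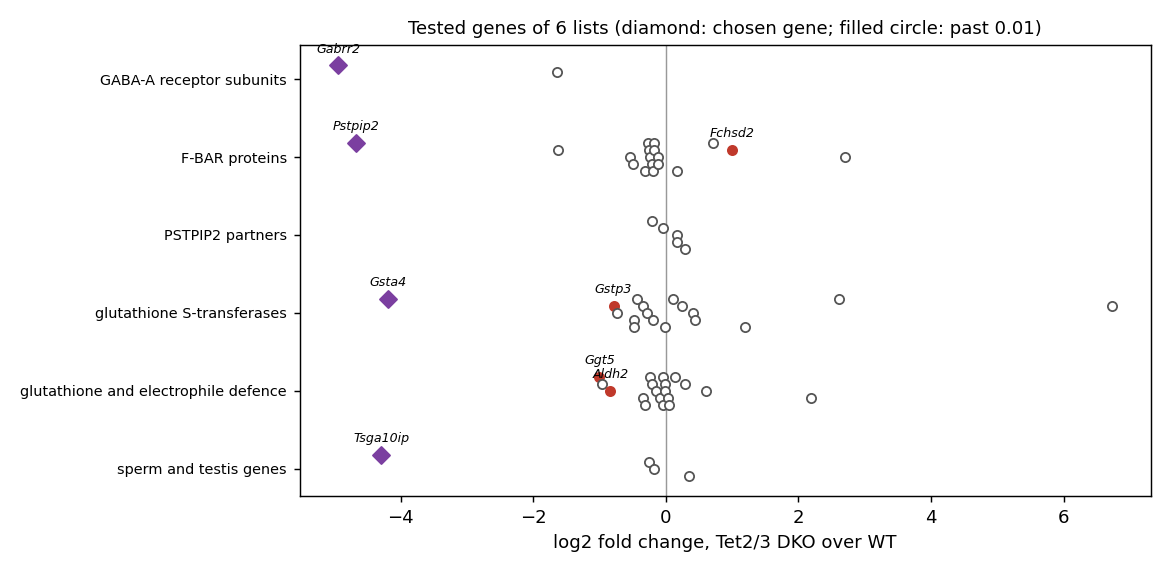
Log2 fold change of Tet2/3 DKO over WT of the tested genes of 6 lists; diamonds are the chosen genes, filled circles genes with an edgeR adjusted p under 0.01 and open circles the rest, spread vertically for legibility. The 4 diamonds, at -4.94 to -4.20, are apart from their relatives, which follows from their choice on this contrast. The far right circle among the transferases is Mgst1, whose fold rests on 0 reads in WT.

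Among glutathione S-transferases, the pi class gene Gstp3 fell, with 1707, 1608 and 1844 reads in WT and 911 and 606 in DKO (log2 fold change -0.79, SE 0.12, adjusted p = 0.00461). Gstp1, the most abundant of the family, had 5200, 4625 and 5489 against 5148 and 4019 reads (0.24, SE 0.08, adjusted p = 0.116). The median over 16 tested was -0.11. Gsta3, the other alpha class gene with reads, had 2, 5 and 3 reads in WT and 8 and 9 in DKO. Mgst1, a microsomal transferase, had 0 reads in WT and 11 in each DKO library (adjusted p = 0.0157, past the threshold with DESeq2).

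Of the genes that make, recycle or use glutathione or clear reactive aldehydes, Ggt5, a gamma-glutamyltransferase, had 962, 773 and 954 reads in WT and 386 and 292 in DKO (log2 fold change -1.0, SE 0.13, adjusted p = 0.00203). Aldh2, the mitochondrial aldehyde dehydrogenase, had 2603, 2681 and 3098 against 1407 and 979 reads (-0.83, SE 0.12, adjusted p = 0.00259). The median of the 19 tested was -0.05. Nfe2l2, the transcription factor NRF2, was at -0.04 (SE 0.10), and Hmox1, haem oxygenase, at 2.19 (SE 0.50, adjusted p = 0.0273) with 33, 32 and 32 reads in WT and 59 and 162 in DKO, past the threshold with DESeq2. Over the alternatives the log2 fold change of Hmox1 ran from 1.14 to 2.84. Tsga10, whose product binds that of Tsga10ip, had 58, 48 and 57 reads in WT and 63 and 42 in DKO (0.35, SE 0.29, adjusted p = 0.538). The other tested genes of its list, Odf2 of the sperm tail and Catsper2 of the sperm calcium channel, were at -0.25 (SE 0.14) and -0.18 (SE 0.27). Of the 22 other sperm and testis genes, 15 had at most 3 reads in every library.

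The sorted cells carried the transcripts of T cells, with 10683 to 11279 CPM summed over 8 T cell genes in WT and 9168 to 10350 in DKO, of which Cd4 and Cd5 were lower, 2 of 8 beside 1.50% of all tested genes. DESeq2 called 3 of the 8, and 4 were lower and 0 higher at an unadjusted p of 0.05. Cd4 was near the threshold (adjusted p = 0.00951) and lost its call without any 1 WT library, with scaling by library size alone and with the legacy moderation of edgeR. Double positive thymocyte genes summed to 86.9 to 96.3 CPM in WT and 48.0 to 49.9 in DKO, with Cd8b1 lower and Rag1 at 0 reads throughout. Most of this sum was Cd8b1, at 65.9 to 71.7 CPM in WT and 27.1 to 28.6 in DKO, while Cd8a had 2.71, 2.91 and 5.39 CPM in WT and 5.77 and 8.67 in DKO (log2 fold change 0.94, adjusted p = 0.128). Macrophage and myeloid genes summed to 8.13 to 14.1 CPM in WT and to 24.5 and 52.1 in DKO, with 0 of 5 tested past the threshold in edgeR or DESeq2, 4 of 5 higher at an unadjusted p of 0.05 beside 12.4% of all tested genes, and Cd14, S100a8 and S100a9 at 3 reads or fewer. Most of this sum was Lyz2, the lysozyme of myeloid cells, at 5.83 to 10.8 CPM in WT and 18.6 and 42.5 in DKO (adjusted p = 0.0143), and Itgam had a log2 fold change of 0.17 (adjusted p = 0.903). Lyz2 was past the threshold with counts of the second strand in all 5 libraries, when 1 DKO library, whichever it was, was left out and without both libraries of doubtful sex. Thymic epithelium genes summed to 10.6 to 13.3 CPM in WT and 10.7 and 34.0 in DKO, mostly from Epcam, at 8.24 to 10.8 CPM in WT and 10.4 and 33.8 in DKO (adjusted p = 0.116). The others of this list did not follow Epcam: Krt8 had 20, 46 and 27 reads in WT and 4 in each DKO library (adjusted p = 0.0645), Psmb11, of the cortical thymoproteasome, had 39, 22 and 18 against 1 and 0 (adjusted p = 0.0191), and Krt5 and Foxn1 had at most 3 reads. B cell genes summed to 5.72 to 7.03 CPM in WT and 9.11 to 9.40 in DKO, with 0 of 2 tested past the threshold in edgeR or DESeq2. At an unadjusted p of 0.05, 1 of these 2 was higher and 0 lower. Cd79b had a mean of 3.82 CPM in WT and 6.33 in DKO, while Cd79a had 2.31 and 1.46. Stromal genes summed to under 0.76 CPM in all libraries, and the list of iNKT cell genes to 137 to 163 CPM in WT and 161 and 133 in DKO. Of the 3 genes of this list Zbtb16 and Klrb1c were higher in DKO, beside 2.42% of all tested genes. Zbtb16 had a mean of 0.887 CPM in WT and 13.1 in DKO, and Klrb1c had 1.86 and 12.3. Most of the sum was Cd1d1, with a log2 fold change of -0.29 (adjusted p = 0.273). The study describes CD1d as the molecule through which iNKT cells are selected, so this sum is not a measure of iNKT cells. Klrb1c lost its call without any 1 WT library, with a replicate block and with robust moderation. Without both libraries of doubtful sex Cd4 (-0.62), Cd5 (-1.42), Cd8b1 (-1.35), Zbtb16 (4.28) and Klrb1c (3.46) were past the threshold, the values being log2 fold changes, as were Cd8a, Epcam and Psmb11. Epcam was also past it without DKO replicate 1. Fewer cells of a type and less RNA per cell cannot be told apart in bulk samples, and the part of these lists in the losses was not tested.

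Little of the 4 genes is shared with other loci. Of the stretches of 50 bases in their exons, 2.77% of those of Gabrr2 also occur in Gabrr1, 6.86% of those of Pstpip2 occur in F830208F22Rik, which overlaps it on the other strand, and 0% of those of Tsga10ip and Gsta4 occur elsewhere in the annotated transcripts. F830208F22Rik had at most 4 reads in any library. In the WT libraries 49.0% to 51.0% of the reads of each of the 4 genes were on the first strand, as for a library without strand information, so reads of an overlapping antisense transcript would count for the gene in part or be set aside as ambiguous.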

How the data were processed

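RNA-seq libraries (SMART-seq v4 and Nextera XT, unstranded, without molecular identifiers) from 3 WT and 2 Tet2/3 DKO mice were used. Per the labels and the methods of the study, the authors trimmed reads with fastp 0.21.0, mapped them to mm10 with STAR 2.7.5a and deposited whole-number counts per gene. The strand-blind counts were used here, with 17607089 to 27267031 reads on genes per library, and intervals on shares of the WT mean and on ratios of DKO libraries cover counting error only, while those on log2 fold changes come from the fitted spread between libraries. T cell receptor tables were not used. Names and spans came from GENCODE M21 (55227 of 55487 identifiers). Genes were filtered with filterByExpr, scaled by TMM and tested with edgeR 4.0.16 (quasi-likelihood, Benjamini-Hochberg over 13525 genes, threshold 0.01), a procedure tested on simulated data. Groups came from the genotype labels. DESeq2 1.42.0, other scalings and filters, either strand column, a replicate block and each library left out were alternatives.

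The 4 genes and all lists were chosen with earlier results of these data known, and no set test was run. Genes are named if they rank beside the 4, are 1 of the 3 nearest tested genes on each side, pass the threshold within 500 kb or in a list, are close relatives or abundant list members, or lie nearest in profile. Ankrd6, Frmd8, Cd109, Gas7, Arhgap45, Cd8a, Cd79a, Cd79b, Lyz2, Itgam, Epcam, Krt8, Bbs1, Cnih2, Mgst1, Hmox1, Psmb11, Cd1d1, Gabra4, Gabre and Gm47015 were named after their values were seen. A gene that the naming rule covers is not reported here. The p-values measure the spread between these libraries.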

Additional observations from a re-analysis of the deposited data

How the results depend on the processing

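The losses of the 4 genes kept their direction under all 16 alternatives, with log2 fold changes of -5.67 to -4.53 for Gabrr2, -6.10 to -3.96 for Pstpip2, -5.14 to -3.84 for Tsga10ip and -5.34 to -3.66 for Gsta4. With 1 library left out at a time they ranged from -5.67 to -4.53, -4.80 to -4.56, -5.14 to -3.84 and -5.30 to -3.66 in the same order. Counting 1 strand gave -6.10 or -3.96 for Pstpip2, and without both libraries of doubtful sex the values were -5.63, -4.53, -5.01 and -5.34. The count of all genes past the threshold, 530, was 1027 with DESeq2, 1347 without both libraries of doubtful sex and 1174 at a threshold of 0.05. It was 110 to 1312 with 1 library left out: 152, 110 and 127 without WT replicate 1, 2 and 3, and 1312 and 1149 without DKO replicate 1 and 2. The single neighbour past the threshold became 3 with DESeq2 and at 0.05, 6 without both libraries, 0 with counts of the first strand or within 250 kb, 4 within 1000 kb and 0 to 5 with 1 library left out. The 4 list genes became 8 with DESeq2 and at 0.05, 9 without both libraries, and 0 to 9 with 1 library left out. The causes were not tested. The threshold that the ordering of lost genes requires was missed by Tsga10ip without WT replicate 2, by Sh3gl3 without WT replicate 3 and by mt-Nd3 without any 1 WT library. Replicate numbers were shared between groups, but same-numbered libraries deviated together with correlations of only 0.015 and 0.0045. With a replicate block the counts were 359 genes, 0 neighbours and 3 list genes (Ggt5, with Arhgap45 and Gas7 in place of Fchsd2, Gstp3 and Aldh2), and the log2 fold changes were -5.02, -4.69, -4.46 and -4.13. Over 67 other named genes recomputed under these settings, 985 values kept their side of the threshold, 39 lost it, 24 gained it and 0 reversed, and 11 genes past the threshold in no setting changed sign. Where 1 group keeps 1 DKO library, that library is assumed to vary like WT.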
